A study of Mus musculus with 7 samples.

Results

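The acute phase proteins *Saa1*, *Saa2*, *Saa3*, *Saa4*, *Hp*, *Orm1*, *Orm2* and *Lcn2*, with the transcription factor *Stat3* and its feedback inhibitor *Socs3*, were followed in RNA-seq of mouse primary hepatocytes from mice with and without *Wdr6*. The 10 genes were chosen by symbol, with earlier results of these data known. All 10 were found among the 14819 rows of the read count table, and all 10 passed the filter on low counts that left 14779 genes for testing. *Wdr6* encodes a WD-repeat protein. It was absent from the whole body of the *Wdr6* knockout (WDR6-WKO) animals, in which exon 2 of the gene had been removed with CRISPR–Cas9, so every liver cell type carried the deletion and not hepatocytes alone. Hepatocytes of male WT and male WDR6-WKO mice were released by collagenase perfusion, grown in William's E medium with 10% serum, kept overnight and left untreated. The mice of the study were C57BL/6J unless otherwise stated, and the age of the hepatocyte donors was not given. The WT group held 4 libraries and the WDR6-WKO group 3. The study's methods describe its replicates in general as biological. The labels do not tie each library to an animal, so the p-values measure the spread between these samples.

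In the acute phase response, cytokines of the interleukin-6 family bind gp130 receptors on hepatocytes, JAK kinases phosphorylate STAT3, and STAT3 together with C/EBP and NF-κB factors switches on secreted proteins of the plasma. SOCS3 is itself made in response to STAT3 and shuts the receptor off again.

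Totals ranged from 17816913 to 23668940 counts per library. *Wdr6* had 769 to 972 counts in the WT libraries and 40 to 62 in the WDR6-WKO libraries, so the genotypes matched the labels. Levels are given as CPM, the counts of a gene relative to the total of its library after trimmed-mean (TMM) scaling. WDR6-WKO replicate 3 stood apart from the other libraries of its group: the chi-square per gene was 14.4 and 16.2 in the pairs that held it and 5.17 between the other two. Its share of mitochondrial counts was also the highest of the 7 libraries, at 3.74% against 3.05 to 3.41% in the others. Results that rest on it are given with and without it. The hepatocyte label was borne out by *Alb* (7366 ± 730 CPM in WT) and *Apob* (5845 ± 479 CPM), while *Tat* (1.5 ± 0.483 CPM) and *Pck1* (1.47 ± 0.586 CPM) were low.

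Of the 10 genes, 5 were called higher in WDR6-WKO hepatocytes (*Saa1*, *Saa3*, *Orm1*, *Orm2* and *Lcn2*) and 1 lower (*Saa4*) by edgeR, with 0.05 as the limit of the adjusted p. Across all genes tested, 6.65% were called higher and 6.18% lower. *Saa2*, *Hp*, *Stat3* and *Socs3* did not pass. The WT and WDR6-WKO ranges did not overlap for 6 genes that lay higher and 3 that lay lower, whereas 11.8% and 11.7% of all genes, 23.5% in either direction, were so separated. By the thresholds the study used for DEGs (0.35 or more on the log2 scale in either direction, with 0.05 as the limit of the unadjusted p), 5 of the 10 were higher and 1 lower, against 6.42% and 3.94% of all genes. *Saa2* then entered the higher genes and *Orm1* left them. Without WDR6-WKO replicate 3, 6 genes were called higher and 2 lower, against a background of 14.5% and 14.1% of all genes.

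**Figure D1:**
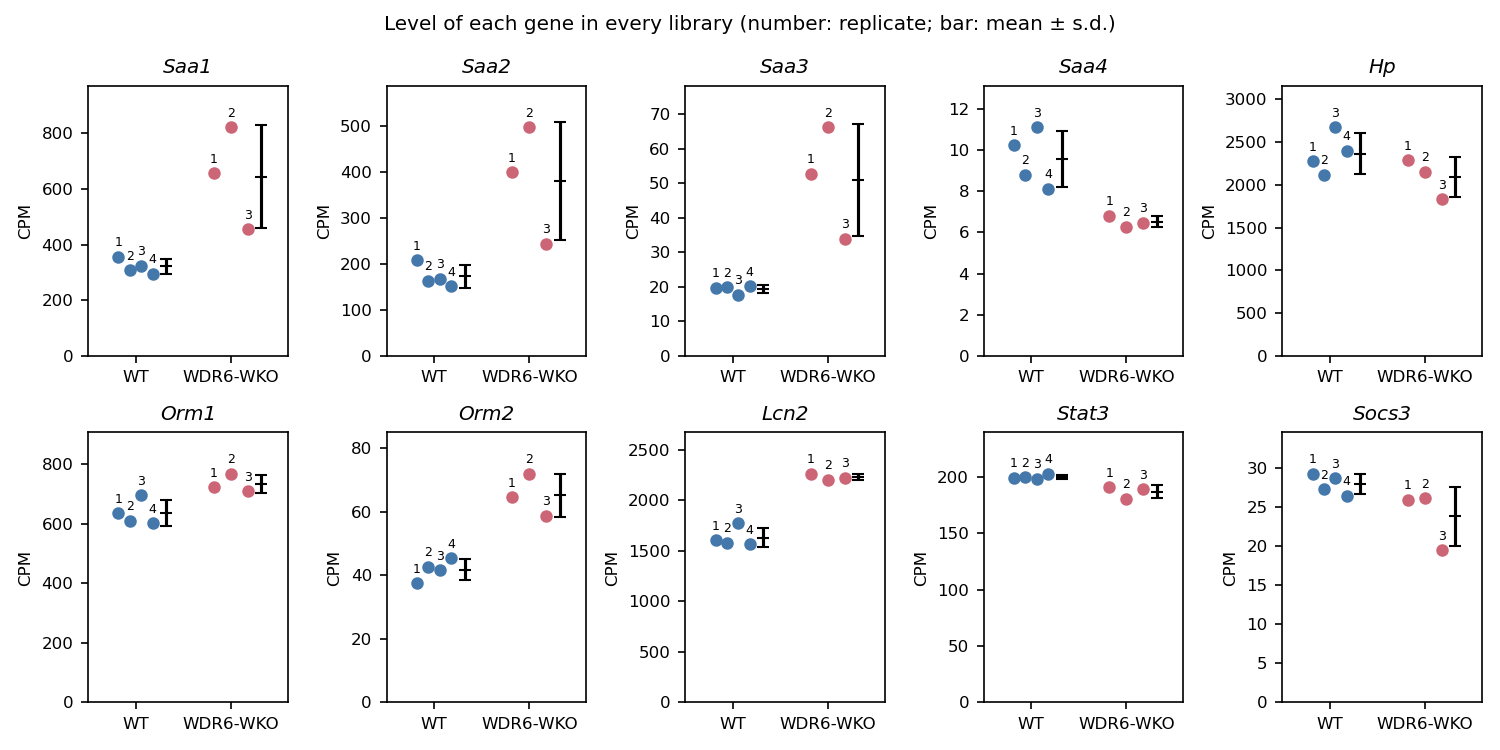
CPM of each of the 10 genes in every library, on linear axes that start at 0 and differ between panels. Points are libraries numbered by replicate, and the bar is the mean ± s.d. of 4 WT or 3 WDR6-WKO libraries. The WDR6-WKO points of *Saa1*, *Saa2* and *Saa3* lie above all WT points and are spread widely, with replicate 2 on top and replicate 3 at the bottom, while those of *Lcn2* lie close together between 2202 and 2263 CPM.

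The serum amyloid A proteins are small apolipoproteins carried on high-density lipoprotein. *Saa1* and *Saa2* encode the acute phase forms made by the liver, *Saa3* a form also made by macrophages and fat cells, and *Saa4* the constitutive form. In GRCm38 the 4 genes lie within 42316 bases of chromosome 7, in the order *Saa3* (chr7:46711998-46715700, minus strand), *Saa4* (chr7:46727998-46732603, minus strand), *Saa1* (chr7:46740497-46742980, minus strand) and *Saa2* (chr7:46751790-46754313, plus strand). *Saa1* and *Saa2* thus point away from each other, 8809 bases apart. Because these neighbours moved in different directions, the sequence just ahead of each gene is shown, from RefSeq (GRCm38.p6), 5′ to 3′ on the gene's strand and ending before its first annotated exon. Capitals mark matches to a C/EBP-type motif (TTGCNNAA or its reverse complement TTNNGCAA) and, in *Saa3*, also to a kappaB-type motif (GGNNTTTCC or its reverse complement GGAAANNCC). The stretches are chr7:46742981-46743230 for *Saa1*, chr7:46751583-46751789 for *Saa2*, chr7:46715701-46715926 for *Saa3* and chr7:46732604-46732853 for *Saa4*.
Saa1: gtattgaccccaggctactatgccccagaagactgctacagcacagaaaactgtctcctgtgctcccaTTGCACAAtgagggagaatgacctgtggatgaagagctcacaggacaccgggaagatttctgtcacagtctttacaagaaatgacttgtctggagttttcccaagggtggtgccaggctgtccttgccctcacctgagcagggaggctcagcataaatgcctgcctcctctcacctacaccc
Saa2: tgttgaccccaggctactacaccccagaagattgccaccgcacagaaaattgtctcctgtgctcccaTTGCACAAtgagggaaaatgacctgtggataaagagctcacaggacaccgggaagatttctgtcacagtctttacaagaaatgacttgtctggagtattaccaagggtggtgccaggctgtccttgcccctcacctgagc
Saa3: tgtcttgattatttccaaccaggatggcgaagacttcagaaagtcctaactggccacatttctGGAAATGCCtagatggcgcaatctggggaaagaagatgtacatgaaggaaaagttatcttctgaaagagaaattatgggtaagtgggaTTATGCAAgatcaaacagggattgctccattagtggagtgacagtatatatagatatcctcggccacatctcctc
Saa4: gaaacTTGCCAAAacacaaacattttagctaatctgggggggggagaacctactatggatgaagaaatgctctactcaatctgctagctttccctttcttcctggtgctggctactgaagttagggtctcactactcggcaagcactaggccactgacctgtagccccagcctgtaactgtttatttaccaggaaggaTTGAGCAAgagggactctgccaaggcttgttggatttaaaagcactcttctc
Over the full windows of 300 bases, from 250 before to 50 after the start, *Saa1* and *Saa2* were 96.0% identical, *Saa1* and *Saa3* 65.1% and *Saa1* and *Saa4* 61.6%. *Saa1* and *Saa2* share the same C/EBP-type match, TTGCACAA, which begins at -182 and -183 from the RefSeq start. *Saa3* has TTATGCAA at -99 and the kappaB-type GGAAATGCC at -187. *Saa4*, which fell, also holds the C/EBP-type letters, at -245 and -52. A C/EBP-type match is found in 10.8% and a kappaB-type match in 5.82% of 32851 mouse promoter windows. A match to these letters is a description and not a binding site. Only these letters were searched, so longer or varied forms of the motifs would stand unmarked in any of the stretches.

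*Saa1* rose to about double its WT level. It stood at 357, 308, 325 and 296 CPM in WT replicates 1 to 4 and at 657, 822 and 455 CPM in WDR6-WKO replicates 1 to 3. All 3 WDR6-WKO libraries lay above every WT library, and they differed among themselves far more than the WT libraries did. The means were 321 ± 26.5 CPM (s.d., n = 4) and 645 ± 184 CPM (s.d., n = 3). On the log2 scale the change was 1.0 (SE 0.21), a fold of 2.01 with a 95% interval of 1.40 to 2.87 and an edgeR adjusted p of 0.0341. This call was narrow. Leaving out any 1 WT library gave adjusted p of 0.0657, 0.0833, 0.0853 and 0.0859 for WT replicates 1 to 4, and leaving out WDR6-WKO replicate 1 gave 0.105 (edgeR). Without WDR6-WKO replicate 2 the call held at a log2 fold change of 0.79 (adjusted p = 0.0382), and without replicate 3 at 1.20 (adjusted p = 0.00301).

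*Saa2* followed *Saa1* closely but did not pass the threshold. Its levels were 207, 163, 168 and 151 CPM in the WT libraries and 399, 497 and 244 CPM in the WDR6-WKO libraries. No WDR6-WKO library fell within the WT range, and the order of the 3 was that of *Saa1*. The log2 fold change was 1.14 (SE 0.27), a fold of 2.2 with a 95% interval of 1.38 to 3.52, and the edgeR adjusted p was 0.0531. It passed without WDR6-WKO replicate 3 (log2 fold change 1.37, adjusted p = 0.00569), in DESeq2 (adjusted p = 0.000328) and when only genes with at least 10 counts in every library were tested (adjusted p = 0.0497 in edgeR). The transcripts of *Saa1* and *Saa2* are 94.4% identical, and 14.8% of the 50-base words of the *Saa1* transcript occur in another gene, 13.2% in *Saa2*, so reads could have been divided between them in counting. RefSeq also lists each symbol as an older name of the other. Their counts were therefore added. The sum was 564, 471, 493 and 447 CPM in WT and 1056, 1319 and 699 CPM in WDR6-WKO, with a log2 fold change of 1.05 and an edgeR adjusted p of 0.0418. The share of *Saa2* in that sum was 33.8 to 36.7% in WT and 37.8%, 37.7% and 34.9% in WDR6-WKO replicates 1 to 3, so these ranges overlapped.

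*Saa3* showed the largest log2 fold change of the 10 genes, from a much lower level. It measured 19.7, 19.9, 17.7 and 20.2 CPM in WT and 52.7, 66.2 and 33.9 CPM in WDR6-WKO. The lowest WDR6-WKO library, replicate 3, was still well above the highest WT library. This gave a log2 fold change of 1.40 (SE 0.22), a fold of 2.64 (95% interval 1.84 to 3.77), with an edgeR adjusted p of 0.00787. Each WDR6-WKO library departed from the WT mean in the same direction, by 1.44, 1.77 and 0.80 on the log2 scale, and the value without replicate 3 was 1.61. Only 1.78% of its 50-base words are shared with another gene. The genes whose levels over the 7 libraries, relative to the WT mean, tracked *Saa3* most closely among the 13431 compared were *2410006H16Rik*, *Apol9b* and *Tomm7*, with root mean square differences of 0.13, 0.20 and 0.22 in log2 CPM.

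*Saa4* went the other way. It stood at 10.2, 8.80, 11.1 and 8.13 CPM in WT and at 6.82, 6.28 and 6.48 CPM in WDR6-WKO. All 3 WDR6-WKO libraries were below all WT libraries and, unlike those of its neighbours, lay within a narrow band (s.d. 0.268 CPM). The level fell by 0.55 on the log2 scale (SE 0.13), to a fold of 0.68 (95% interval 0.56 to 0.83), with an edgeR adjusted p of 0.0107. These values rest on 116 to 209 counts per library, fewer than for any of the other 9 genes. *Gulo*, which encodes the last enzyme of vitamin C synthesis, *Fah*, of tyrosine breakdown, and *Decr2*, of fatty acid oxidation in peroxisomes, were most like *Saa4* over the 7 libraries, at root mean square differences of 0.08, 0.09 and 0.10.

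**Figure D2:**
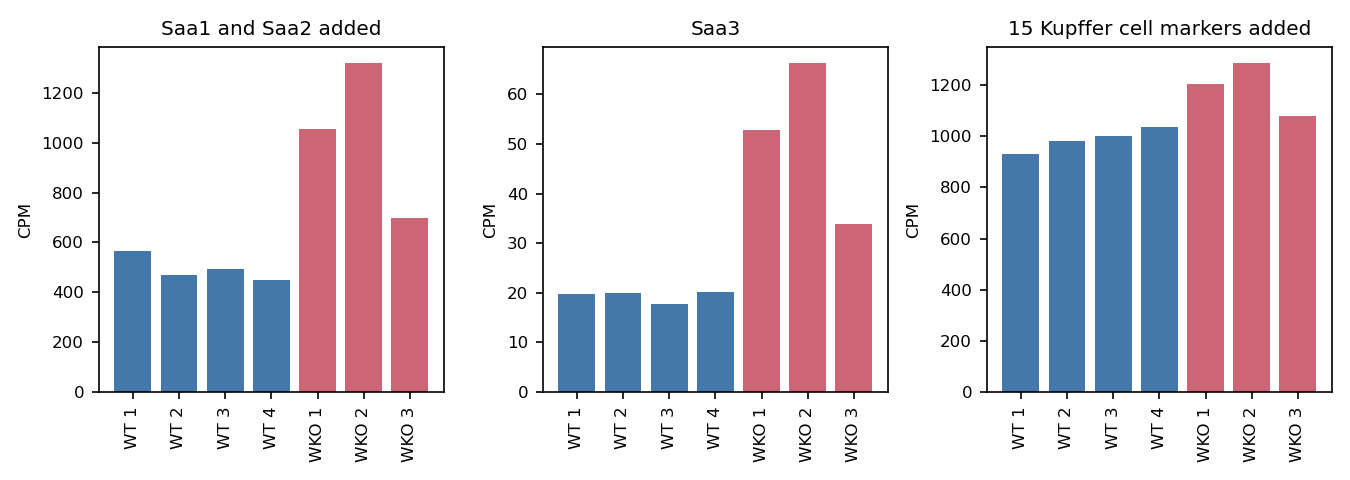
Summed CPM of *Saa1* and *Saa2*, CPM of *Saa3* and summed CPM of 15 Kupffer cell markers in each library, as bars from 0 (blue, WT; red, WDR6-WKO, shortened to WKO). In all 3 panels WDR6-WKO replicate 2 is the highest library and replicate 3 the lowest of its group, and all WDR6-WKO bars are above all WT bars. For the Kupffer cell markers this order is that of the sum and not of each marker.

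Markers of other liver cells moved beside these genes. The summed level of 15 Kupffer cell markers, the resident macrophages of the liver, was 929 to 1038 CPM in WT and 1206, 1285 and 1080 CPM in WDR6-WKO replicates 1 to 3, which is the order of the *Saa1*, *Saa2* and *Saa3* levels. Of the 15, 4 were called higher (*Lyz2*, *C1qc*, *Fcgr1* and *C1qb*) and 0 lower, and none was at 0 CPM in any group. Their median log2 fold change was 0.24, against 0.01 over all genes, of which 6.65% were called higher and 6.18% lower. *Clec4f*, which in the liver marks Kupffer cells, was at 117 ± 5.62 CPM in WT and 126 ± 10.4 CPM in WDR6-WKO and did not pass (log2 fold change 0.10, edgeR adjusted p = 0.311). The order of the sum did not hold for every marker. Of those called, *C1qc* and *C1qb* had it. *Lyz2* (77.3, 74.7 and 79.5 CPM in WDR6-WKO replicates 1 to 3) and *Fcgr1* (9.39, 7.80 and 6.65 CPM) did not. *Timd4* lay below the WT range in WDR6-WKO and did not pass (log2 fold change -0.48, edgeR adjusted p = 0.0880). *Orm2* and *Cebpb*, which are not on this marker list, also had that order. The part of Kupffer cells in the serum amyloid A result was not tested. In RNA from a mixed preparation, more cells of a type and more RNA per cell cannot be told apart. Of 14 neutrophil markers, 2 could be read, *Csf3r* and *Mmp9*, with summed levels of 3.35 to 4.02 CPM in WT and 3.35 to 4.16 CPM in WDR6-WKO, and the other 12 were not analysed here. Of 12 hepatocyte markers, 7 were called lower and 0 higher, with a median log2 fold change of -0.38, beside the same background.

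Haptoglobin, encoded by *Hp* (chr8:109575128-109579172, minus strand), binds free haemoglobin in plasma. *Hp* was at 2274, 2120, 2674 and 2397 CPM in WT and at 2289, 2153 and 1834 CPM in WDR6-WKO. It was the only one of the 10 whose ranges overlapped, with WDR6-WKO replicates 1 and 2 inside the WT range and replicate 3 beneath it. The log2 fold change was -0.18 (SE 0.09), with a 95% interval of the fold from 0.78 to 1.01 and an edgeR adjusted p of 0.205. Without replicate 3 it was -0.09. The upper bound for *Hp* lay under the lower bound of the fold of *Saa1*.

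The orosomucoids, or α1-acid glycoproteins, are plasma carriers of small lipophilic molecules. *Orm1* (chr4:63344560-63348163) and *Orm2* (chr4:63362449-63365878) lie on the plus strand of chromosome 4. *Orm1* measured 636, 611, 696 and 602 CPM in WT and 723, 769 and 710 CPM in WDR6-WKO. The groups did not overlap, although the highest WT library (replicate 3) and the lowest WDR6-WKO library (replicate 3) were close. The rise was small, a log2 fold change of 0.21 (SE 0.05) or a fold of 1.15 (95% interval 1.06 to 1.25), with an edgeR adjusted p of 0.0207. The call was lost without WT replicate 1, 2 or 4 (adjusted p = 0.0538, 0.0802 and 0.0832) and without WDR6-WKO replicate 1 or 2 (adjusted p = 0.0578 and 0.105).

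*Orm2* rose by a larger fold than *Orm1*, a difference that was not itself tested. It stood at 37.6, 42.8, 41.7 and 45.4 CPM in WT and at 64.7, 72.1 and 58.8 CPM in WDR6-WKO. Every WDR6-WKO library exceeded every WT library, again with replicate 2 highest and replicate 3 lowest. The log2 fold change was 0.64 (SE 0.08), a fold of 1.56 (95% interval 1.39 to 1.75), with an edgeR adjusted p of 5.25e-05. As a share of the *Orm1* and *Orm2* counts together, *Orm2* made up 5.57 to 7.02% in WT and 8.21%, 8.57% and 7.65% in WDR6-WKO. The transcripts are 91.0% identical and 22.7% of the 50-base words of *Orm2* occur elsewhere, so a part of its reads may have come from the far more abundant *Orm1*. With *Orm1*, *Orm2* and *Orm3* added, the log2 fold change was 0.24 (edgeR adjusted p = 0.00787). The stretch ahead of *Orm2* (chr4:63362199-63362448, plus strand, RefSeq GRCm38.p6) is shown for its palindromic C/EBP-type match in capitals, which begins at -120.
Orm2: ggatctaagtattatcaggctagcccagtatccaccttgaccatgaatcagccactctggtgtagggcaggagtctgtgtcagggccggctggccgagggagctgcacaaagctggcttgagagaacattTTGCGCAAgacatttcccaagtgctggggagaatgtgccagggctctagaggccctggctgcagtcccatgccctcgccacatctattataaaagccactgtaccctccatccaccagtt

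Lipocalin 2, encoded by *Lcn2* (chr2:32384633-32388252, minus strand), takes up the iron-binding siderophores of bacteria and is made by hepatocytes, neutrophils and macrophages. *Lcn2* was at 1608, 1580, 1773 and 1564 CPM in WT and at 2263, 2202 and 2224 CPM in WDR6-WKO. The 3 WDR6-WKO libraries were almost level with one another and all above the WT range. *Lcn2* thus had a log2 fold change of 0.45 (SE 0.05), a fold of 1.37 (95% interval 1.27 to 1.47), with an edgeR adjusted p of 1.95e-05. Its departures from the WT mean were 0.47, 0.43 and 0.45 in WDR6-WKO replicates 1 to 3, so that the order seen in *Saa1* to *Saa3* was not found here. The RefSeq promoter window of *Lcn2* holds a C/EBP-type match, TTGCTCAA, at -216.

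STAT3 is the transcription factor that carries the interleukin-6 signal to the nucleus. *Stat3* (chr11:100885098-100939540, minus strand) was at 199, 200.2, 199 and 203 CPM in WT and at 191, 181 and 189 CPM in WDR6-WKO. All WDR6-WKO libraries lay below all WT libraries, by little. *Stat3* had a log2 fold change of -0.10 (SE 0.04), a fold of 0.93 (95% interval 0.874 to 0.998), and did not pass (edgeR adjusted p = 0.164). It passed only without WDR6-WKO replicate 3 (-0.11, adjusted p = 0.0497). Its exons overlap those of *Stat5a* on the opposite strand by 72 bases, and whether the counting used strand is not given. These counts measure the transcript and not the phosphorylated protein.

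*Socs3* (chr11:117966079-117970047, minus strand), the feedback inhibitor of the gp130 receptor, was not called in either direction. It was at 29.2, 27.2, 28.7 and 26.4 CPM in WT and at 25.9, 26.1 and 19.4 CPM in WDR6-WKO. WDR6-WKO replicates 1 and 2 lay just under the lowest WT library and replicate 3 far under it. *Socs3* had a log2 fold change of -0.22 (SE 0.10), a fold of 0.86 (95% interval 0.74 to 0.99), with an edgeR adjusted p of 0.143. It was -0.10 (adjusted p = 0.317) without replicate 3. Of the 8 genes with a RefSeq promoter entry (*Hp* and *Orm1* had none), *Socs3* was the one with a STAT-type match (TTCNNNGAA, which is its own reverse complement), found in 8.30% of all promoter windows, and 6 had a C/EBP-type match. The stretch ahead of the RefSeq start (chr11:117969452-117969616, minus strand, GRCm38.p6), which lies inside the annotated span of the gene but outside its exons, is shown with that match, at -154, in capitals.
Socs3: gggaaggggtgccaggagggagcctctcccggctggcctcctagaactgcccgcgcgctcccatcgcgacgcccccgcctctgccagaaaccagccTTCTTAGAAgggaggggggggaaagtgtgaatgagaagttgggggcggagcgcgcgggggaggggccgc

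**Figure D3:**
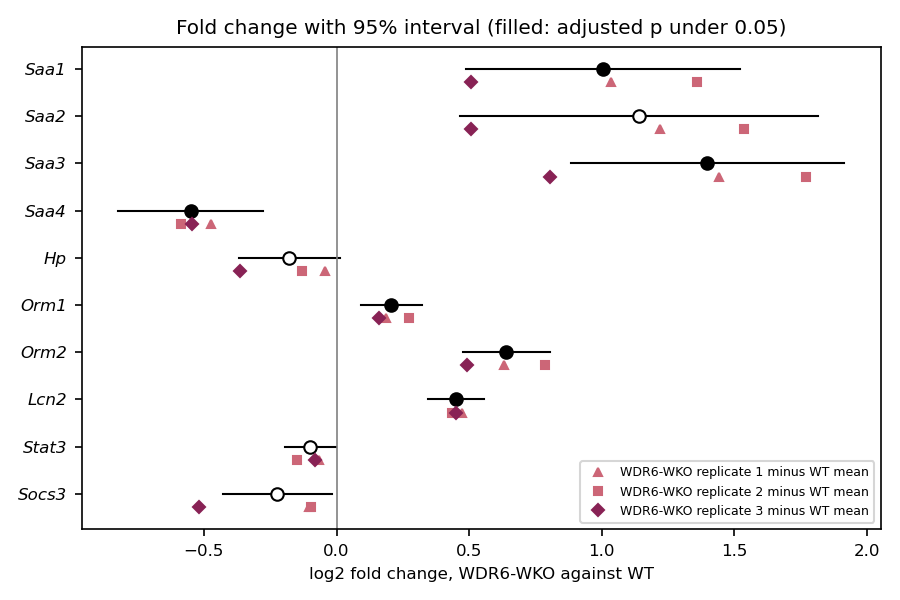
Log2 fold change of WDR6-WKO against WT for the 10 genes (circles, filled where the edgeR adjusted p is under 0.05) with 95% intervals as lines, and the difference of each WDR6-WKO library from the WT mean (small symbols). Intervals of *Saa1*, *Saa2* and *Saa3* are wide, and replicate 3 is the lowest of the 3 libraries in these genes and in *Hp*, *Orm1*, *Orm2* and *Socs3*.

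In an exact two-sided permutation test of single genes over all 35 ways to assign 4 and 3 libraries, the p-value was 0.0286, the smallest this design allows, for *Saa1*, *Saa2*, *Saa3*, *Saa4*, *Orm2*, *Lcn2*, *Stat3* and *Socs3*. It was 0.0571 for *Orm1* and 0.229 for *Hp*. The genes at the smallest value all had ranges that did not overlap, as did 23.5% of all genes. Their permutation p thus mostly repeats that separation and adds no separate support. *Stat3* and *Socs3*, which edgeR did not call, share it with *Lcn2*.

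Per kilobase of transcript, *Lcn2* and *Hp* had the highest levels of the 10 in WT, at 1796 ± 106 and 1759 ± 175 CPM per kb (s.d., n = 4), and their ranges overlapped. *Orm1* (821), *Saa1* (528), *Saa2* (265), *Orm2* (54.0), *Stat3* (44.4), *Saa3* (34.9), *Socs3* (10.9) and *Saa4* (4.57 CPM per kb) came next, each with a range clear of its neighbours. In WDR6-WKO, *Lcn2* stood above *Hp* (2456 ± 34.0 and 1555 ± 174 CPM per kb, s.d., n = 3) without overlap. *Saa1* (1059 ± 301 CPM per kb) and *Orm1* (947 ± 39.7 CPM per kb) overlapped there, as did *Saa3* (91.8 ± 29.3 CPM per kb) and *Orm2* (84.1 ± 8.57 CPM per kb). The ranges of *Saa1* and *Saa2* (583 ± 196 CPM per kb) also overlapped, with *Saa1* at 748 in replicate 3 and *Saa2* at 762 in replicate 2. Within each WDR6-WKO library, however, *Saa1* was above *Saa2*.

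The other genes of the pathway were read from 8 lists, each described by its counts beside the 6.65% of all genes called higher, the 6.18% called lower and the median log2 fold change of 0.01 over all genes. Among the cytokines that start the response, 5 of 10 could be tested, and 1 was called higher (*Clcf1*, a ligand of the gp130 family, log2 fold change 0.36, adjusted p = 0.00307 in edgeR) and 0 lower. The list median was 0.01. *Il6*, *Il1b*, *Osm*, *Il11* and *Il22* were not analysed here.

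Of 13 receptors and JAK kinases, 1 was called higher and 4 lower, with a median of -0.04. The interleukin-6 receptor *Il6ra* rose by 0.23 on the log2 scale, from 29.6 ± 1.51 to 34.7 ± 0.952 CPM (edgeR adjusted p = 0.0352). Its partner *Il6st*, which encodes gp130, fell by 0.19, from 315 ± 18.1 to 276 ± 17.1 CPM (edgeR adjusted p = 0.0377). The leukaemia inhibitory factor receptor *Lifr* (-0.39), the interleukin-1 receptor *Il1r1* (-0.31) and the kinase *Jak2* (-0.29) were the other 3 called lower. *Jak1* stood at -0.11 and did not pass (edgeR adjusted p = 0.188).

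Of 13 inhibitors of STAT3 signalling besides *Socs3*, 0 were called higher and 2 lower, *Pias3* (-0.37) and *Socs5* (-0.21), with a list median of 0.07. *Pias3*, whose protein binds STAT3, went from 16.2 ± 0.904 to 12.6 ± 0.872 CPM (edgeR adjusted p = 0.0160). *Socs1* (log2 fold change 0.62, SE 0.27, at 1.03 CPM in WT), *Socs2* (-0.17) and the phosphatase *Ptpn11* (0.07) did not pass, with edgeR adjusted p of 0.149, 0.163 and 0.358. Without WDR6-WKO replicate 3 the list held 1 higher and 3 lower, in a fit that called 14.5% of all genes higher and 14.1% lower. Of 5 other STAT genes tested, 2 were called higher and 0 lower, with a median of -0.07. *Stat2*, of the interferon pathway, was among those called higher (log2 fold change 0.65, edgeR adjusted p = 3.02e-06). The other called gene is not reported here, and *Stat4* was not analysed here.

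Of 14 C/EBP, NF-κB and liver factors that act with STAT3, 1 was called higher and 3 lower, with a median of 0.02. *Nfkbia*, which encodes the NF-κB inhibitor IκBα, rose by 0.30. *Bcl3*, a nuclear partner of NF-κB (-0.29), *Hnf4a* (-0.27) and *Cebpa* (-0.29), both of which maintain hepatocyte genes, fell. *Cebpb*, the C/EBP factor of the acute phase, stood at 122 ± 17.2 CPM in WT and 140 ± 35.2 CPM in WDR6-WKO, with a log2 fold change of 0.20 (SE 0.21, edgeR adjusted p = 0.594). Of 13 immediate STAT3 target genes, 3 were called higher and 1 lower, with a median of 0.09. *Nfil3* (0.51), *Myc* (0.30) and the kinase gene *Pim3* (0.28) were higher, and *Bcl3*, which is on both lists, was lower. Without WDR6-WKO replicate 3, 5 of these 13 were called higher and 2 lower, where 14.5% and 14.1% of all genes were called.

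**Figure D4:**
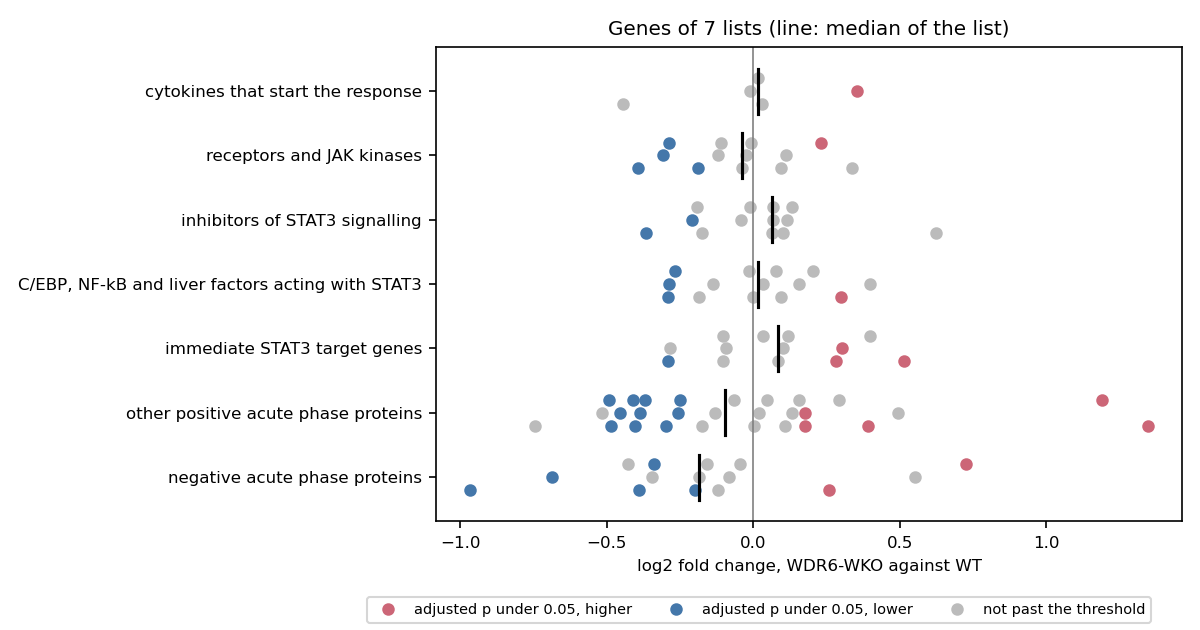
Log2 fold change of every tested gene of 7 of the 8 lists, without the other STAT genes (red, called higher; blue, called lower; grey, not past an edgeR adjusted p of 0.05), with the list median as a black line. The other positive acute phase proteins spread to both sides, with 10 genes called lower and 5 higher and a median of -0.10.

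Acute phase proteins other than the 8 above did not share one direction. Of 28 other positive acute phase proteins tested, which as a class are made in greater amount during inflammation, 5 were called higher and 10 lower, and the median log2 fold change was -0.10. The interleukin-1 receptor antagonist *Il1rn* went from 31.1 ± 4.23 to 79.1 ± 5.82 CPM (log2 fold change 1.35, edgeR adjusted p = 2.22e-07). *Hamp*, which encodes the iron hormone hepcidin, went from 18.4 ± 3.21 to 41.9 ± 7.77 CPM (log2 fold change 1.19, edgeR adjusted p = 0.000594). *Timp1*, *Itih4* and *Cd14*, named after their values were seen, were the other 3 called higher. Leucine-rich α2-glycoprotein *Lrg1* (-0.48), fibrinogen β chain *Fgb* (-0.45) and the lipopolysaccharide-binding protein *Lbp* (-0.40) had the smallest p-values of those called lower, with edgeR adjusted p of 0.000141, 0.000143 and 0.000225. *Saa5* was not analysed here.

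Of 15 negative acute phase proteins, which fall during inflammation, 2 were called higher and 5 lower, with a median of -0.18. Fetuin-A, encoded by *Ahsg*, went from 1620 ± 127 to 829 ± 68.2 CPM, a log2 fold change of -0.97 (edgeR adjusted p = 3.43e-07). *Apoa1*, the main protein of high-density lipoprotein, went from 719 ± 9.64 to 446 ± 92.6 CPM (-0.69, edgeR adjusted p = 0.0160). *Itih2* (-0.39) and *Igf1* (-0.20) were also lower. *Apoa4* (0.72) was called higher, as was *Apoa2* (0.26), which was named after its value was seen. *Apoa1*, *Cyp2e1*, *Alb* and *Ttr* are also among the hepatocyte markers described above, of which 7 of 12 were called lower. *Cyp2e1*, named after its value was seen, was called lower like *Apoa1* (-0.34, edgeR adjusted p = 0.0227), and *Alb* and *Ttr* were not called. *Hnf4a*, of the liver factors, is another of these markers. The part of that shift in these lists was not tested. Without WDR6-WKO replicate 3, the positive list held 6 higher and 9 lower and the negative list 2 higher and 8 lower, again beside 14.5% and 14.1% of all genes.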

How the data were processed

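RNA-seq read counts of cultured primary hepatocytes from 4 WT and 3 WDR6-WKO samples were used, grouped by the GEO titles. The authors made the deposited counts: libraries from the NEBNext Ultra kit were sequenced on an Illumina HiSeq and aligned to mm10 with Bowtie 2.2.3 (Bowtie2 in the submitters' processing notes). The counting tool, annotation and strand setting were not given in the sources used here. The smallest row total was 50 counts, so genes beneath that were not analysed here. The authors tested DEGs with DESeq2, and their fold changes were not used.

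Counts were scaled by TMM and tested with the robust quasi-likelihood test of edgeR 4.0.16 (R 4.3.3) on genotype, after filtering with filterByExpr. Benjamini–Hochberg adjustment covered all 14779 genes tested, and a gene was called at an adjusted p under 0.05. Intervals come from the model's standard errors. One count was worth 0.0416 to 0.0559 CPM. Alternatives used DESeq2 1.42.0, limma 3.58.1 (voom), other scaling and filters, the replicate number as a block, and each library left out in turn. In simulated counts for WDR6-WKO against WT, edgeR recovered 169 of 200 genes changed by 1 on the log2 scale among 14677 genes, with 18 false calls. The simulation gave each gene the same dispersion in all libraries. It therefore held no outlying library such as WDR6-WKO replicate 3, nor the wide WDR6-WKO spread of *Saa1* to *Saa3*.

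The 10 genes and all lists were chosen with earlier results of these data known. All 10 are described. From each list, up to 5 called genes with the smallest p were named. *Il6ra*, *Il6st*, *Jak1*, *Jak2*, *Ptpn11*, *Pias3*, *Socs1*, *Socs2* and *Cebpb* were named whatever their p (1 further gene of that rule is not reported here), as were the 3 genes most like the called gene with the largest rise and the called gene with the largest fall, at a mean of at least 1 CPM. Transcript lengths, locations and 50-base words were taken from GENCODE M21 (GRCm38), promoters from RefSeq. Of the other marker lists, 1 of 8 T, B and NK cell markers could be tested (0 called), sinusoidal endothelial markers had 0 called higher and 1 lower of 10, stellate markers 2 and 1 of 10, and cholangiocyte markers 2 and 0 of 5.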

Additional observations from a re-analysis of the deposited data

Results flagged for a closer look

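Among 49 named genes, a WT library lay far from the other 3 for *Nfil3* and for *Lbp*, by Dixon's test at the 95% level, which chance passes in about 1 of 20 groups. For *Nfil3* the gap ratio was 0.886, with 26.2 CPM in WT replicate 1 against 27.5 to 27.7 CPM in the others. For *Lbp* it was 0.875, with 69.7 CPM in WT replicate 4 against 73.9 to 74.5 CPM in the others. The WDR6-WKO libraries of both genes lay outside the WT range with or without that library, at 35.7 to 40.7 CPM and 53.7 to 58.2 CPM. The WDR6-WKO group, with 3 libraries, was not tested this way.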

How the results depend on the processing

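No gene of the 10 reversed direction under any alternative run. *Saa3*, *Saa4*, *Orm2* and *Lcn2* kept their call in all of them, and *Hp* and *Socs3* were never called. Leaving out 1 library at a time gave 570 to 2150 genes called higher and 462 to 2083 lower (983 and 914 with all libraries), and 3 to 6 of the 10 called higher and 1 to 2 lower. The highest of these counts came without WDR6-WKO replicate 3, and the counts of the gene lists without it were added after seeing the data. Scaling by library size alone gave 1212 higher and 696 lower of all genes, with the median log2 fold change at 0.03 in place of 0.01, and the same 5 and 1 of the 10. The study's DEG thresholds gave 583 genes lower. DESeq2 called 6 of the 10 higher and 1 lower, beside 1011 and 998 of all genes.

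With the replicate number as a block, 3 of the 10 were called higher, since *Saa1* (edgeR adjusted p = 0.189) and *Orm1* (0.0570) no longer passed, and 945 and 817 of all genes. WT replicate 4 has no WDR6-WKO library of its number, so it added nothing to the comparison in this fit. The fit thus differs from the main one in the libraries that count as well as in the block. Libraries with the same number did not deviate together (correlations of 0.04, 0.02 and 0.04), and not every library correlated best with its own number. Whether libraries of the same number shared a preparation is not given in the labels and was not tested. Between *Saa1* and *Saa2*, and between *Orm1* and *Orm2*, the division of reads limits the separate values. The 3 WDR6-WKO libraries limit the precision of *Saa1* to *Saa3*.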
